A study of Mus musculus with 6 samples.

Results

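The mitochondrial carrier family, SLC25, was taken as every row of the liver count table whose gene symbol is Slc25a followed by a number, and this symbol rule found 47 of the 52459 genes. All 47 were matched by symbol to the mouse annotation (GENCODE vM21, build GRCm38), where they lie on 19 chromosomes. SLC25 carriers are small proteins of the inner mitochondrial membrane, built from repeats of a module that spans the membrane, and they exchange metabolites, nucleotides, phosphate, cofactors and amino acids between the cytosol and the matrix. In hepatocytes they connect the urea cycle, the malate-aspartate shuttle, citrate export for lipid synthesis, fatty acid oxidation and heme synthesis across that membrane. A few members sit in the peroxisome or the outer mitochondrial membrane instead.

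RNA was sequenced from whole livers of 6 male C57BL6J mice of the Alb-Cre/Cas9 F1 generation, 8 months old, in which Cre under the albumin promoter switches on Cas9 in hepatocytes. The vector AAV8-U6-sgCtrl, whose guide targets GFP, was injected intravenously in 3 mice (sgCtrl, mice 5.1, 7.1 and 7.2) and AAV8-U6-sgPrdx2 in the other 3 (sgPrdx2, mice 1.1, 1.3 and 3.2), at 4 to 5 weeks of age. Both groups received 100 mg/kg of the carcinogen diethylnitrosamine (DEN) 3 weeks later and, 1 week after that, CDAHFD, a high-fat diet that lacks choline, which lasted 6 months, so no healthy liver is among them. Some hepatocytes most likely escape the vector, according to the study. Cas9 expression depends on Cre, so it is not expected in cells where the albumin promoter is inactive. In whole liver RNA, fewer cells of a type and less RNA per cell cannot be told apart.

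Total counts per liver ran from 37462102 to 56865293, so that 3 counts, taken as the limit of detection, stand for 0.0555 to 0.0921 normalized CPM (counts scaled to library size with edgeR's TMM factors), which covers counting error only. Prdx2, the edited gene, had 4783, 5247 and 6939 counts in sgCtrl and 4345, 6052 and 4858 in sgPrdx2 livers (log2 fold change 0.01, SE 0.18, adjusted p = 0.983). The labels can therefore not be checked on Prdx2 RNA, and a guide that makes small insertions or deletions need not lower it. The study reports suppressed PRDX2 protein in hepatocytes of sgPrdx2 mice by immunohistochemistry, which RNA counts cannot show. TMM factors were higher in every sgCtrl liver (at most 1.17) than in any sgPrdx2 liver (0.805 to 0.951). Scaling to total counts alone shifted the all-gene median of the log2 fold change from -0.02 to -0.39. All 15 hepatocyte markers had higher values in sgPrdx2 livers (8 called, median log2 fold change 0.96), with a summed level of 88980 to 95020 against 153200 to 207800 CPM (sgCtrl against sgPrdx2). Of macrophage markers 11 of 11 tested were lower (2 called, summed level 3337 to 3759 against 2316 to 3014 CPM), and of stellate cell markers 9 of 10 (0 called, 2322 to 2659 against 1673 to 1735 CPM). Lower values were also found for 7 of 8 endothelial (1 called, 393.7 to 412.3 against 311.5 to 380.2 CPM), 6 of 7 cholangiocyte (0 called, 1678 to 1904 against 1261 to 1445 CPM) and 7 of 9 lymphocyte markers (1 called, 92.9 to 109.1 against 54.0 to 77.4 CPM). With total counts 7 macrophage, 7 stellate cell, 5 endothelial, 2 cholangiocyte and 2 lymphocyte markers were called lower, and 8 hepatocyte markers higher. Of all genes, 17.9% were called lower and 1.21% higher with total counts, and 1.54% lower and 1.79% higher with TMM. Without its highest gene (left out after the values were seen) a list's summed level still did not overlap for hepatocytes without Alb, macrophages without Lyz2 and stellate cells without Col3a1. The groups then overlapped for endothelial cells without Eng (236.3 to 259.6 against 163.8 to 241.8 CPM), cholangiocytes without Spp1 (185.7 to 270.2 against 170.1 to 187.8 CPM) and lymphocytes without the general leukocyte gene Ptprc (28.3 to 38.0 against 27.3 to 32.9 CPM). No marker on these lists was at 0 in all livers. These shifts ran alongside every SLC25 result given here, and their part in those results was not tested.

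The family is recognised by a signature that recurs in each module, a proline, any residue, an acidic residue, any pair of residues and a basic residue. It was searched in the longest coding sequence of each gene, and 27 of the 47 members held it at least 3 times, 12 held it at 2 places, 5 at 1 and 3 at none. Of 21592 protein-coding genes, 7.32% held at least 2 and 2.44% at least 3. In the sequences below, the codons of the proline, the acidic and the basic residue are in capitals. For Slc25a12 and Slc25a13 only the first of 3 sites is printed. Sites are shown for 6 members on which the comparison of the livers turns. They are Slc25a48 (chr13:56438355-56474239, plus strand), Slc25a23 (chr17:57043711-57059863, minus strand), its relatives Slc25a24 (chr3:109123149-109168457, plus strand) and Slc25a25 (chr2:32414487-32451445, minus strand), and the aspartate-glutamate carriers Slc25a12 (chr2:71271063-71367749, minus strand) and Slc25a13 (chr6:6041218-6217173, minus strand), all in GRCm38.
Slc25a48, first site, codon 25: CCTctgGACacagtcAAG
Slc25a48, second site, codon 123: CCCgtgGAActcatcAAG
Slc25a48, the third site, codon 231: CCAatgGATgtcgtgAAA
Slc25a23, first site, codon 204: CCTctgGACcgactcAAG
Slc25a24, first site, codon 214: CCTttgGATcgcctcAAG
Slc25a25, first site, codon 251: CCCctgGACagactgAAG
Slc25a23, second site, codon 298: CCCatgGAGgtactaAAG
Slc25a24, second site, codon 306: CCCatgGAGgttttgAAA
Slc25a25, second site, codon 345: CCAatgGAGgttctgAAG
Slc25a12, first site, codon 346: CCCataGACctggtgAAG
Slc25a13, first site, codon 349: CCTatcGATcttgtaAAG
In Slc25a48 the first signature came early in the coding sequence, whereas in Slc25a23, Slc25a24, Slc25a25, Slc25a12 and Slc25a13 it followed a long stretch that, as background, holds their calcium-binding domain.

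The filter on low counts was passed by 42 members, which were tested with 17032 genes in all. The 5 that did not pass had at most 9 counts in any liver. Slc25a2, an ornithine carrier, had 1, 6 and 7 counts in sgCtrl and 2, 9 and 7 in sgPrdx2 livers, Slc25a18, a glutamate carrier, 1, 2 and 3 against 1, 0 and 1, and Slc25a31, the germ cell ADP/ATP carrier, 2, 2 and 3 against 2, 3 and 1. Slc25a41, a short relative of the ATP-Mg carriers, had 1 count in sgCtrl liver 7.2 and 1 in sgPrdx2 liver 1.1, and Slc25a54 had none in any liver.

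Levels were compared between members as CPM per kilobase of exon. Slc25a47, a carrier known from liver, was the highest, with 230.5 ± 64.8 CPM per kb in sgCtrl and 277.8 ± 43.4 in sgPrdx2 livers (SD, n = 3), and made up 19.9% of all SLC25 CPM in sgCtrl livers. Slc25a39, which carries glutathione, followed with 196.8 ± 19.2 CPM per kb in sgCtrl livers, within the spread of Slc25a47. Next in sgCtrl livers were the ADP/ATP carrier Slc25a5 (149.0 ± 6.74 CPM per kb), the citrate carrier Slc25a1 (69.1 ± 5.71), the dicarboxylate carrier Slc25a10 (51.3 ± 6.78), the phosphate carrier Slc25a3 (45.3 ± 1.07) and the oxoglutarate carrier Slc25a11 (40.8 ± 2.17). Slc25a10 and Slc25a3, neighbours in this order, did not differ beyond their spread. At the other end of the tested members, Slc25a43 reached 0.330 ± 0.0717 CPM per kb in sgCtrl livers.

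**Figure D1:**
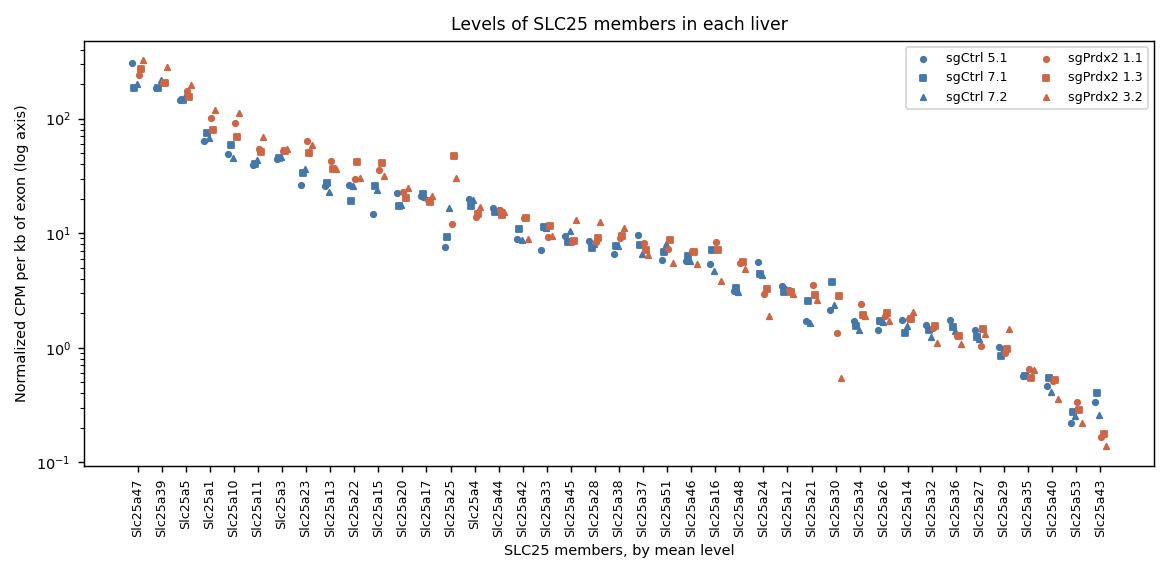
Normalized CPM per kilobase of exon (log axis) of 41 of the tested SLC25 members in each of the 6 livers, ordered by mean level, with sgCtrl livers in blue and sgPrdx2 livers in orange. Slc25a47, Slc25a39 and Slc25a5 stand above the other members in all livers, and Slc25a25 and Slc25a30 scatter most within a group.

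The spread between livers of a group differed among members. The pooled standard deviation of log2 CPM was 0.22 at the median of the 42, 0.04 for Slc25a3 and 0.06 for Slc25a44 and Slc25a17, but 0.90 for Slc25a30 and 0.82 for Slc25a25. Slc25a5 shares 33.8% of its 50-base stretches with other genes, its processed pseudogenes among them, so its counts are uncertain. Slc25a37, Slc25a36 and Slc25a20 share 5.61 to 6.99%. The setting for strand in the counting is not given in the sources used here, and exons on the opposite strand cover 31.3% of Slc25a35, 14.9% of Slc25a33, 8.92% of Slc25a11, 7.06% of Slc25a46, 6.6% of Slc25a10 and at most 6.33% of any other member. Their counts may hold reads of those neighbours.

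Of the 42 tested members, 2 rose in sgPrdx2 livers by edgeR's quasi-likelihood test (Benjamini-Hochberg adjusted p under 0.05), Slc25a48 and Slc25a23, against 1.79% of all genes called higher. No member was called lower, against 1.54% of all genes, and at an unadjusted p under 0.05 there were 12 higher and 4 lower members (13 and 11.9% of all genes), while DESeq2 called 8 higher and 1 lower (7.63 and 5.81% of all genes tested by it). The 8 were Slc25a48, Slc25a23, Slc25a1, Slc25a10, Slc25a11, Slc25a13, Slc25a15 and Slc25a25, and the lower one Slc25a24. The levels of 15 members did not overlap between the groups with sgPrdx2 higher, and of 4 with sgPrdx2 lower, where 16.7 and 17.5% of all genes did so. A log2 fold change above 0 was found for 30 of 42 members (48.3% of all genes) and their median was 0.23, but when scaled to total counts only 12 of 42 were above 0 and the median was -0.15. Relative to the median of all genes the members' median was 0.25 higher with TMM and 0.24 higher with total counts. Their summed level was 3317 to 3550 CPM in sgCtrl and 4230 to 4923 CPM in sgPrdx2 livers without overlap, whereas their share of the raw counts was 0.372 to 0.415% and 0.374 to 0.421%, which overlapped. With TMM, 17 of the 21 members with higher levels were above 0 (median 0.27) and 13 of the 21 with lower levels (median 0.10). With total counts 0 members were called higher and 6 lower (Slc25a24, Slc25a4, Slc25a43, Slc25a17, Slc25a36 and Slc25a44), where 1.21% of all genes were called higher and 17.9% lower.

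**Figure D2:**
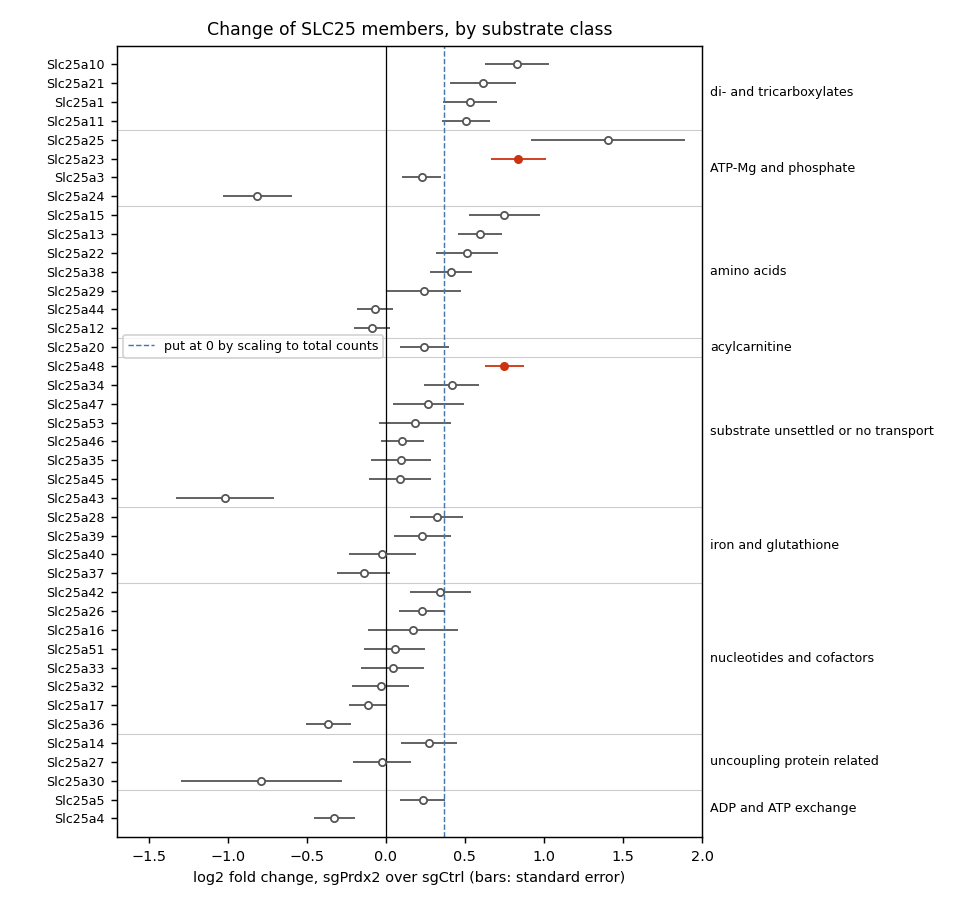
Log2 fold change of sgPrdx2 over sgCtrl livers with its standard error for 41 of the tested SLC25 members, grouped by substrate class, with called members in filled red. The dashed line at 0.37 marks the value that scaling to total counts puts at 0, and 12 members lie to its right.

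Slc25a48, which has been described as a mitochondrial choline carrier, was measured at 10.7, 11.2 and 10.2 CPM in sgCtrl and at 18.5, 19.0 and 16.5 CPM in sgPrdx2 livers. The groups did not overlap, and the lowest sgPrdx2 liver lay above all sgCtrl livers by more than the spread within either group. Its log2 fold change was 0.75 (SE 0.12, 1.68-fold, adjusted p = 0.0373). Without sgPrdx2 liver 3.2 the call held (adjusted p = 0.0376), but without sgCtrl liver 5.1, 7.1 or 7.2 or sgPrdx2 liver 1.1 or 1.3 the adjusted p was 0.0550 to 0.149 at log2 fold changes of 0.72 to 0.78. With total counts it was 0.39 (adjusted p = 0.105).

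Slc25a23, which exchanges ATP-Mg for phosphate under the control of calcium, stood at 138.6, 178.2 and 193.4 CPM in sgCtrl and 337.8, 263.9 and 310.1 CPM in sgPrdx2 livers. All sgPrdx2 livers were above all sgCtrl livers. Its log2 fold change was 0.84 (SE 0.17, 1.79-fold, adjusted p = 0.0485). The call was lost without any 1 of the 6 livers (adjusted p 0.0607 to 0.161, log2 fold change 0.71 to 0.95) and with total counts (0.46, adjusted p = 0.0690).

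The promoters of these called members, from 250 bases before to 50 bases after the start, were taken from RefSeq (GRCm38.p6), to show what they hold in common. Of the 47 members 36 had an entry, with a median GC content of 59.3% against 52.7% for all promoters. The TATA box (TATAAA), the CCAAT box, the GC box (GGGCGG) and the E box (CACGTG) were searched on both strands, and matches are in capitals. None of these motifs overlaps another in the windows shown. The table lists 2 starts for Slc25a23, and the one shown holds the annotated start of the gene.
Slc25a48, chr13:56438105-56438404, plus strand: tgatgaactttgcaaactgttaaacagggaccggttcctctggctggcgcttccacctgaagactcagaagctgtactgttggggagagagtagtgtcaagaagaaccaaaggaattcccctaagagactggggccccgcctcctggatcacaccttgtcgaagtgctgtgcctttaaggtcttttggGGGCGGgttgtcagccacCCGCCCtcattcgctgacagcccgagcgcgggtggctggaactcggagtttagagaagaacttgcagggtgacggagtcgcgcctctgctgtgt
Slc25a23, chr17:57059814-57060113, minus strand: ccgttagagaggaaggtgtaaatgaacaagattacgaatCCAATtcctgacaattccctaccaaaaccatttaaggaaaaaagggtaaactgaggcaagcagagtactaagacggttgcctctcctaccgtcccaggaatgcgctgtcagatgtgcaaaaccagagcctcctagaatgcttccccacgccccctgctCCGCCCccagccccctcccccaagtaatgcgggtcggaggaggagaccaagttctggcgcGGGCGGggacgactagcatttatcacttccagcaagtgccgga
Both windows held 2 GC boxes and neither held a TATA or E box, and Slc25a23 had 1 CCAAT. Of 32851 promoters in the table, 35.7% held a GC box, 37.4% a CCAAT box, 13.6% a TATA box and 7.15% an E box.

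The carriers of di- and tricarboxylates had log2 fold changes of 0.51 to 0.83 (4 of 4 above 0, median 0.57), none of which edgeR called, and all 4 stayed above 0 with total counts (median 0.20). Slc25a10, which takes malate or succinate in exchange for phosphate, had 170.5, 203.3 and 157.9 CPM in sgCtrl and 316.3, 239.8 and 388.9 CPM in sgPrdx2 livers (0.83, SE 0.20, adjusted p = 0.0652). Slc25a1, the citrate carrier that supplies cytosolic acetyl-CoA, was at 138.3, 162.8 and 147.6 CPM against 217.9, 173.5 and 257.7 CPM (0.53, SE 0.17, adjusted p = 0.119). In Slc25a11, the oxoglutarate-malate carrier of the malate-aspartate shuttle, 82.8, 85.1 and 91.7 CPM stood against 115.2, 108.2 and 146.3 CPM (0.51, SE 0.15, adjusted p = 0.0992). The groups did not overlap in these members, nor in Slc25a21, the oxodicarboxylate carrier, with 8.01 to 12.5 CPM against 12.8 to 17.4 CPM (0.61, adjusted p = 0.132). DESeq2 called 3 of the 4 higher, Slc25a10 (adjusted p = 0.00243), Slc25a11 (0.0252) and Slc25a1 (0.0391). sgPrdx2 liver 3.2 had the highest value for Slc25a10, Slc25a1 and Slc25a11.

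The ATP-Mg and phosphate carriers did not share a direction, with 3 of 4 tested members above 0 and 1 below (median 0.53). With total counts 2 were above 0, Slc25a23 and Slc25a25. Slc25a24 had 19.0, 14.97 and 14.7 CPM in sgCtrl and 10.1, 11.1 and 6.45 CPM in sgPrdx2 livers, all below the sgCtrl livers, at a log2 fold change of -0.81 (SE 0.22, adjusted p = 0.0790). It was called lower with total counts (-1.17, adjusted p = 0.0281) and by DESeq2. Slc25a25, the third calcium-regulated carrier, had the largest fold change of the tested members, 1.41 (SE 0.48, adjusted p = 0.133), from 59.9, 73.1 and 130.9 CPM in sgCtrl and 93.9, 368.6 and 236.3 CPM in sgPrdx2 livers. Its groups overlapped, since sgPrdx2 liver 1.1 lay below sgCtrl liver 7.2, and DESeq2 called it (1.41, adjusted p = 0.0114). Without sgPrdx2 liver 1.3 its log2 fold change was 0.92. Slc25a3, which brings in the phosphate used by ATP synthase, was nearly even within each group, 246.5, 249.6 and 258.0 CPM against 287.4, 291.6 and 303.9 CPM, and its groups did not overlap (0.23, SE 0.12, adjusted p = 0.291), but it turned to -0.14 with total counts.

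**Figure D3:**
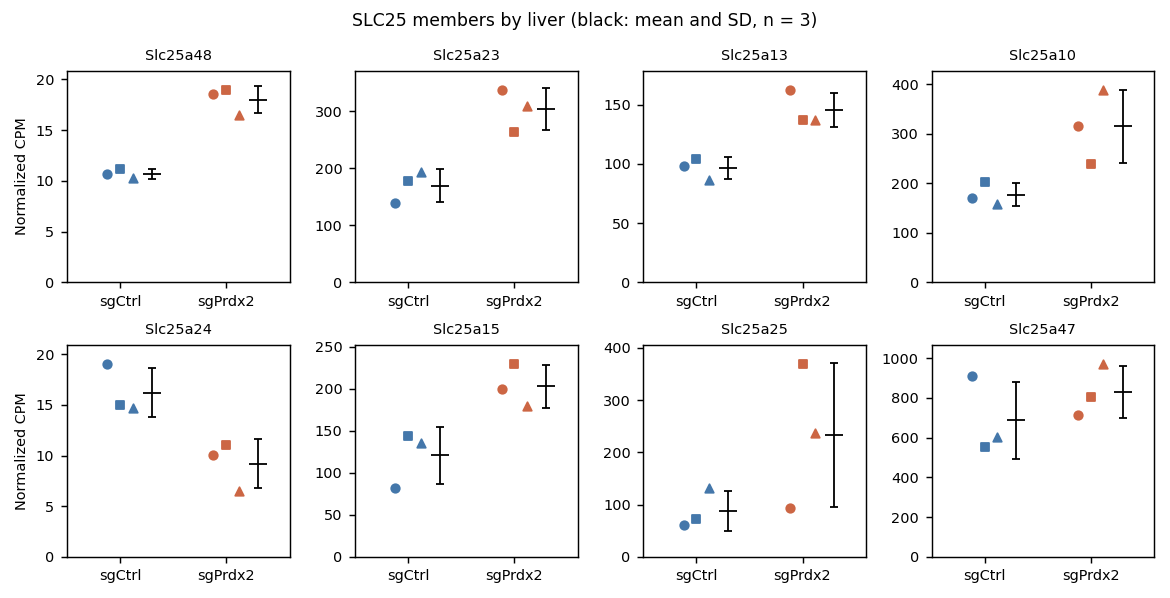
Normalized CPM of 8 SLC25 members in each liver (linear axes from 0), with sgCtrl livers in blue and sgPrdx2 livers in orange, and the mean with its SD (n = 3) in black. The groups are apart in Slc25a48, Slc25a23, Slc25a13, Slc25a10, Slc25a24 and Slc25a15 and overlap in Slc25a25 and Slc25a47.

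Among the amino acid carriers 5 of 7 tested had a log2 fold change above 0 (median 0.41), 4 of 7 with total counts. edgeR called none of them, and DESeq2 called Slc25a13 (adjusted p = 0.00317) and Slc25a15 (adjusted p = 0.0171) higher. Slc25a13 (citrin), the liver form of the aspartate-glutamate carrier that feeds the urea cycle and the malate-aspartate shuttle, had 98.5, 104.2 and 86.4 CPM in sgCtrl and 162.5, 137.2 and 137.1 CPM in sgPrdx2 livers without overlap (0.60, SE 0.14, adjusted p = 0.0604). Its relative Slc25a12, best known from brain and muscle, had 25.5, 22.4 and 24.0 CPM against 23.6, 22.6 and 21.6 CPM, which overlapped (-0.09, SE 0.11, adjusted p = 0.665). Slc25a15, the ornithine carrier of the urea cycle, was at 82.2, 144.2 and 135.4 CPM against 200, 229.1 and 179.0 CPM (0.75, SE 0.23, adjusted p = 0.101), with sgCtrl liver 5.1 the lowest. Slc25a38, the glycine carrier that serves heme synthesis, stood at 18.1, 21.4 and 21.4 CPM against 25.1, 25.7 and 30.2 CPM without overlap (0.41, SE 0.13, adjusted p = 0.114), and at 0.04 with total counts. Of the others, the glutamate carrier Slc25a22 had 0.51 (adjusted p = 0.160), Slc25a29, which carries basic amino acids, 0.24 (adjusted p = 0.556) and Slc25a44, which carries branched-chain amino acids, -0.07 (adjusted p = 0.729).

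The ADP/ATP carriers hand the ATP made in the matrix to the cytosol. Slc25a4, the form of heart and muscle, had 47.0, 40.4 and 46.0 CPM in sgCtrl and 32.4, 34.7 and 39.5 CPM in sgPrdx2 livers, with every sgPrdx2 liver lower (-0.32, SE 0.13, adjusted p = 0.168). It was called lower with total counts (-0.70, adjusted p = 0.0196). Slc25a5, the main form in liver, had 239.0, 238.7 and 258.1 CPM against 285.9, 256.6 and 323.0 CPM, with sgPrdx2 liver 1.3 inside the range of the sgCtrl livers (0.23, SE 0.14, adjusted p = 0.340), and -0.15 with total counts.

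The 9 carriers of nucleotides and cofactors had log2 fold changes of -0.36 to 0.34 (6 of 9 above 0, median 0.06), and with total counts all 9 were below 0. Slc25a17, the peroxisomal carrier of CoA and NAD and the highest of this class per kilobase, had 60.5, 63.2 and 59.3 CPM in sgCtrl and 55.6, 53.8 and 59.6 CPM in sgPrdx2 livers, which overlapped (-0.12, SE 0.11, adjusted p = 0.559), though with total counts it was called lower (-0.49, adjusted p = 0.0340). Slc25a36, a pyrimidine nucleotide carrier, had 13.5 to 16.6 CPM against 10.3 to 12.2 CPM without overlap (-0.36, adjusted p = 0.165). In Slc25a26, the S-adenosylmethionine carrier, all sgPrdx2 livers were above all sgCtrl livers (0.23, adjusted p = 0.366). The CoA carrier Slc25a42, the NAD carrier Slc25a51, the folate carrier Slc25a32, the pyrimidine nucleotide carrier Slc25a33 and Slc25a16, overlapped between groups, with adjusted p of 0.304 to 0.926.

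In the carriers of iron and glutathione 2 of 4 had a log2 fold change above 0 (median 0.10), 0 of 4 with total counts, and all overlapped between groups. Slc25a39 was at 514.3, 509.3 and 603.2 CPM in sgCtrl and 567.5, 560.0 and 781.8 CPM in sgPrdx2 livers (0.23, SE 0.18, adjusted p = 0.452), with sgPrdx2 liver 3.2 the highest. Its relative Slc25a40 had 3.46 to 4.58 CPM against 3.01 to 4.36 CPM (-0.02, adjusted p = 0.957). The iron carriers of erythroid and other cells, Slc25a37 (mitoferrin 1) and Slc25a28 (mitoferrin 2), had log2 fold changes of -0.14 (adjusted p = 0.631) and 0.32 (adjusted p = 0.276).

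Slc25a20, which carries acylcarnitines into the matrix for fatty acid oxidation, had 109.0, 83.7 and 85.4 CPM in sgCtrl and 111.8, 98.5 and 119.0 CPM in sgPrdx2 livers, and the groups overlapped through sgCtrl liver 5.1 (0.24, SE 0.15, adjusted p = 0.361, and -0.14 with total counts). Of the 3 relatives of the uncoupling proteins, Slc25a30 was the highest per kilobase and the most variable tested member, with 9.78, 17.1 and 10.7 CPM against 6.17, 12.9 and 2.49 CPM (-0.79, SE 0.51, adjusted p = 0.368). Its log2 fold change was -0.38 without sgPrdx2 liver 3.2, -0.50 without sgCtrl liver 7.1 and -1.50 without sgPrdx2 liver 1.3. Slc25a14 (0.27, adjusted p = 0.373) did not overlap between the groups, whereas Slc25a27 did (-0.02, adjusted p = 0.946), and with total counts all 3 were below 0.

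The 8 tested members without a settled substrate in the list used here, Slc25a48 among them, had log2 fold changes of -1.02 to 0.75 (7 of 8 above 0, median 0.15, and 2 of 8 above 0 with total counts). Slc25a47 had 909.2, 551.3 and 603.3 CPM in sgCtrl and 714.0, 804.4 and 969.6 CPM in sgPrdx2 livers, which overlapped through sgCtrl liver 5.1 (0.27, SE 0.23, adjusted p = 0.485, and -0.12 with total counts). Slc25a43 was scarce, 0.594, 0.712 and 0.457 CPM against 0.296, 0.314 and 0.246 CPM, with every sgPrdx2 liver lower (-1.02, SE 0.31, adjusted p = 0.104), and with total counts it was called (-1.37, adjusted p = 0.0321). Slc25a34 had 3.84 to 4.55 CPM against 5.04 to 6.49 CPM without overlap (0.42, adjusted p = 0.191). Slc25a46, which sits in the outer membrane and shapes mitochondria, and Slc25a35, Slc25a45 and Slc25a53 had log2 fold changes of 0.09 to 0.19 (adjusted p 0.641 to 0.794).

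Neighbouring genes of the family differed widely in level. Slc25a29 and Slc25a47 start on opposite strands of chromosome 12 with 162 bases between them, and had means of 2.44 and 687.9 CPM in sgCtrl livers. Slc25a41 and Slc25a23 lie 2056 bases apart on chromosome 17, with 0.00634 and 170.1 CPM, and Slc25a54 and Slc25a24 6461 bases apart on chromosome 3, with 0 and 16.2 CPM. On chromosome X, 18448 bases separate Slc25a43 from Slc25a5, which had 0.587 and 245.3 CPM.

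The ratio of a pair of members within a liver does not depend on how the library is scaled. Of 11 pairs listed, 10 could be compared, and the groups did not overlap in 4 of them (exact permutation over the livers, two-sided, p = 0.1, which is the lowest possible with 3 against 3, adjusted p = 0.25 over the 10 pairs). The share for ratios of other gene pairs was not computed. Of all single genes, 16.7% were higher and 17.5% lower in sgPrdx2 livers without overlap. The log2 ratio of Slc25a23 to Slc25a24 was 2.86, 3.57 and 3.72 in sgCtrl and 5.06, 4.58 and 5.58 in sgPrdx2 livers, a difference of 1.69. For Slc25a25 to Slc25a24 it was 1.65, 2.29 and 3.16 against 3.22, 5.06 and 5.19, a difference of 2.12. In both pairs all sgPrdx2 livers were tilted away from Slc25a24, in the second by a narrow margin at liver 1.1. Since Slc25a24 is in both, they are not separate results. For Slc25a12 to Slc25a13 the ratio was -1.95, -2.22 and -1.85 against -2.78, -2.60 and -2.67, a difference of -0.68, and for Slc25a4 to Slc25a5 it was -2.35, -2.56 and -2.49 against -3.14, -2.89 and -3.03, a difference of -0.55. In both, the ratio moved towards the member that is the main form in liver, but neither reached an adjusted p under 0.05. Slc25a5 shares 33.8% of its 50-base stretches with other genes, so its ratio is uncertain as well. The other 6 pairs overlapped, with differences of -0.45 to 1.33 (exact permutation p 0.2 to 0.7).

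**Figure D4:**
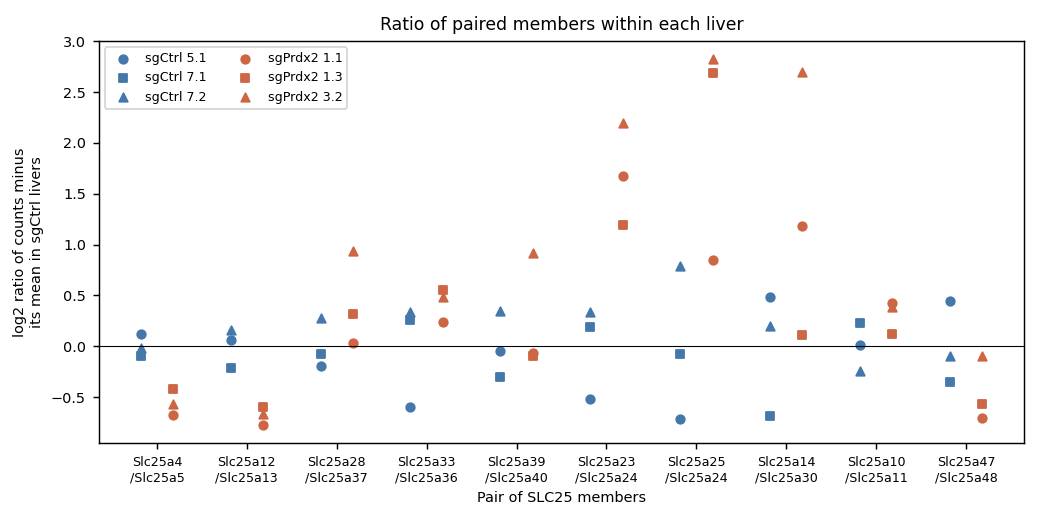
Log2 ratio of the counts of paired SLC25 members in each liver, minus the mean of that ratio in the sgCtrl livers, with sgCtrl livers in blue and sgPrdx2 livers in orange. The groups are apart in Slc25a4/Slc25a5, Slc25a12/Slc25a13, Slc25a23/Slc25a24 and Slc25a25/Slc25a24 and overlap in the other 6 pairs.

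Mitochondrial genes outside the family were set beside it. All 36 complex I subunits of the respiratory chain (Ndufa, Ndufb, Ndufc, Ndufs and Ndufv genes) had log2 fold changes above 0, from 0.22 to 0.81 (median 0.64, 0 called, 34 at an unadjusted p under 0.05, and 33 of 36 above 0 with total counts). Of the mitochondrial ribosomal proteins 73 of 74 tested were above 0 (median 0.41, 1 called, and 44 of 74 with total counts). The SLC25 members ranged more widely, from -1.02 to 1.41, around a median of 0.23.

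**Figure D5:**
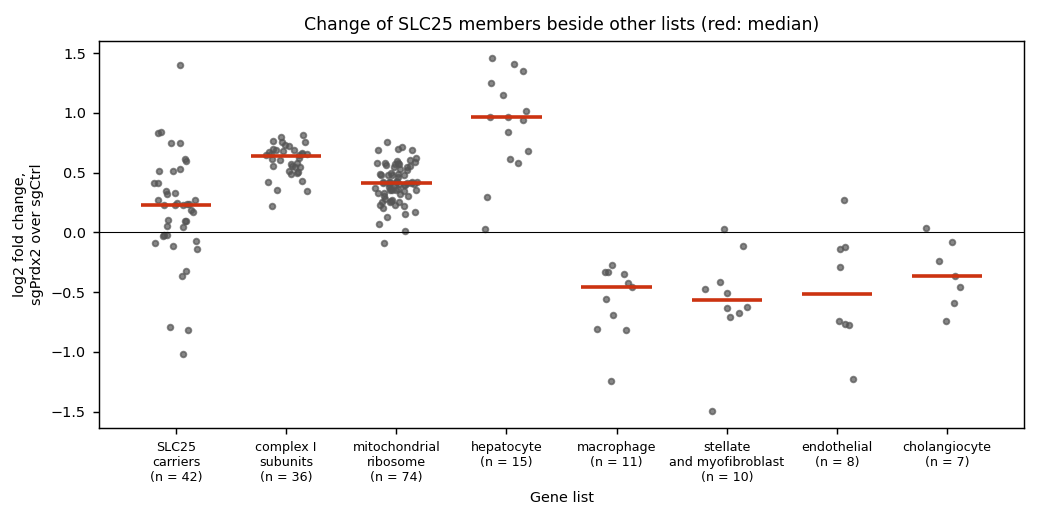
Log2 fold change of sgPrdx2 over sgCtrl livers (TMM scaling) for each tested gene of 8 lists, with the median in red. SLC25 members (median 0.23) lie on both sides of 0, complex I subunits (0.64) and hepatocyte markers (0.96) above it, and most non-parenchymal markers below it. With total counts the SLC25 median lies below 0.

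The enzymes that work with the carriers were taken from lists by pathway, and calls in these lists are those of edgeR with TMM. All 6 urea cycle enzymes had log2 fold changes above 0 (0.77 to 1.15, median 0.90, also 6 of 6 with total counts, none called). Cps1 is on this list and also among the hepatocyte markers, whose median was 0.96. Otc, which uses the ornithine that Slc25a15 brings in, had 138.8, 273.7 and 201.8 CPM in sgCtrl and 481.0, 423.7 and 428.2 CPM in sgPrdx2 livers without overlap (1.118, SE 0.24, adjusted p = 0.0504). In the malate-aspartate shuttle 4 of 4 enzymes were above 0 (median 0.55, 3 of 4 with total counts, none called), and Mdh1 had 318.5, 394.0 and 393.3 CPM against 592.5, 560.8 and 633.0 CPM (0.69, SE 0.15, adjusted p = 0.0509).

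Among the 8 enzymes of choline and one-carbon metabolism all had log2 fold changes above 0 (median 0.82, 7 of 8 with total counts) and 3 rose, beside 1.79% of all genes called higher. Sardh, which oxidises sarcosine in the matrix, went from 301.3, 489.7 and 429.6 CPM to 977.9, 826.9 and 958.5 CPM (1.18, SE 0.20, adjusted p = 0.0394). Aldh7a1, which can turn betaine aldehyde into betaine, went from 172.7, 294.5 and 224.5 to 525.8, 423.0 and 512.3 CPM (1.08, SE 0.21, adjusted p = 0.0457), and Shmt2, the mitochondrial serine hydroxymethyltransferase, from 152.9, 192.1 and 180.8 to 299.3, 268.1 and 367.7 CPM (0.83, SE 0.17, adjusted p = 0.0466). All 3 were without overlap, and with total counts Sardh and Aldh7a1 stayed called while Shmt2 did not (0.45, adjusted p = 0.0554). Chdh (0.19, adjusted p = 0.525, and -0.17 with total counts) and Bhmt (0.51, adjusted p = 0.430) overlapped between the groups.

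Of the 4 enzymes around citrate export, Me1, the cytosolic malic enzyme, fell from 50.6, 34.4 and 53.8 CPM to 21.7, 21.6 and 23.1 CPM (-1.06, SE 0.18, adjusted p = 0.0373), also with total counts (-1.44, adjusted p = 0.0131), and the other 3 had -0.12 to 0.08. In the carnitine shuttle 2 of 3 were above 0 (median 0.03, 1 of 3 with total counts) and none was called. Cpt2, which acts after Slc25a20, had 0.40 (adjusted p = 0.114) and Crat -0.50 (adjusted p = 0.271). For heme and iron-sulfur synthesis 5 of 5 were above 0 (median 0.36, 2 of 5 with total counts) and none was called. Among 14 other transporters of the inner membrane 12 were above 0 (median 0.26, 5 of 14 with total counts) and none was called. With total counts 1 was called lower, Sfxn3 (-0.67, adjusted p = 0.0317). The smallest p with TMM was that of Sfxn5 of the sideroflexin family, which was higher in sgPrdx2 livers (0.67, adjusted p = 0.0517).

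SLC25 proteins that bear other symbols do not fall under the symbol rule. Ucp1 and Ucp3, uncoupling proteins of brown fat and muscle, had at most 4 counts in any liver and were not tested. Ucp2, which is found in macrophages among other cells, had 362.6, 265.5 and 329.4 CPM in sgCtrl and 218.3, 206.6 and 334.2 CPM in sgPrdx2 livers (-0.34, SE 0.22, adjusted p = 0.379), and with total counts it was called lower (-0.73, adjusted p = 0.0392). Mtch1 (0.18, adjusted p = 0.392) and Mtch2 (0.39, adjusted p = 0.130), outer membrane relatives of the carriers, did not overlap between the groups, both with sgPrdx2 livers higher, and Mtch1 turned below 0 with total counts.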

How the data were processed

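Read counts per gene of 6 livers were analysed, with the group of each liver taken from its label. The counts were deposited by the authors as whole numbers without normalization. The submitters' processing notes name HISAT2, HTSeq, DESeq2 and GRCm38. Versions, annotation and strand setting are not given in the sources used here. A second table holds the authors' own DESeq2 comparison (mean normalized counts, fold changes, Wald statistics and p-values) and was not used. Results on some genes are not reported here.

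The filterByExpr function of edgeR 4.0.16 (R 4.3.3, minimum count 10) left 17032 genes. TMM factors and the quasi-likelihood test of the same package were applied to all of them, sgPrdx2 against sgCtrl, with Benjamini-Hochberg adjustment and a threshold of 0.05. Standard errors were derived from the F statistic. Every pair of libraries differed by more than sampling noise (lowest chi-square per degree of freedom 34.7). Each liver is 1 mouse. Pair ratios used counts plus 0.5 and exact permutation tests. The scripts were tested on simulated data.

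Members with values per liver were the called ones, the 10 with the smallest p, the highest of each substrate class per kilobase, and those of pairs without overlap. Of other lists, called genes and the one with the smallest p were named, with 1 exception. Chdh, Bhmt, Crat, Sfxn3 and Alas1 were added after their values were seen. The members and lists were chosen with earlier results of these data known. Alternatives were RLE, upper-quartile and total-count scaling, DESeq2 1.42.0, other filters and thresholds, leaving out each liver and, added after seeing the data, a loess correction for length and GC of the transcripts. Positions, lengths and coding sequences are from GENCODE vM21, which need not be the annotation the authors used.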

Additional observations from a re-analysis of the deposited data

How the results depend on the processing

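With RLE or upper-quartile factors and with at least 10 counts in every liver the same 2 members were called. The number of members called higher was 2, and 0 with total counts, 8 with DESeq2, 3 with no filter (Slc25a10 added), 3 with the correction of length and GC content (Slc25a13 added), 0 at an adjusted p under 0.01, 5 at an adjusted p under 0.1, and 0 to 1 when each liver was left out in turn. The number called lower was 0, and 6 with total counts, 1 with no filter (Slc25a24), 1 with DESeq2, 1 with the correction (Slc25a4), and 1 at an adjusted p under 0.1. At an adjusted p under 0.01, 0% of all genes were called in either direction. Under 0.1 it was 5.66% of all genes higher and 4.71% lower. Without sgCtrl liver 7.1 or sgPrdx2 liver 3.2, 1.24 and 1.85% of all genes were called higher. The genes called overall were 567, and 3247 with total counts, 1128 with no filter, 2052 with DESeq2 and 941 with the correction. They were 0 without sgCtrl liver 5.1 or 7.2 or sgPrdx2 liver 1.1 or 1.3, where 3114 to 3993 genes had an unadjusted p under 0.05, so a call lost there says nothing about one member. The median log2 fold change of the members was 0.23 and turned to -0.15 with total counts, and was 0.18 to 0.26 when each liver was left out. Among the members given with values per liver, Slc25a20 (-0.14), Slc25a3 (-0.14), Slc25a39 (-0.15), Slc25a47 (-0.12) and Slc25a5 (-0.15) also turned below 0 with total counts, since that scaling lowers all genes alike. Of the same members, Slc25a12 turned to 0.075 with the correction, where the cause was not tested. Other members turned as well. With the correction Slc25a32 (0.10), Slc25a40 (0.15) and Slc25a27 (0.008) turned above 0 and Slc25a33 (-0.08) below it. All pair ratios but Slc25a39 to Slc25a40 kept their side with 5 added to each count and without each liver. The difference for Slc25a39 to Slc25a40 turned from 0.26 to -0.08 without sgPrdx2 liver 3.2. That move was smaller than the spread of its ratio in sgPrdx2 livers (SD 0.58). No paired analysis was possible because the groups share no replicate numbers. Depth limits the 5 members with at most 9 counts per liver, for which no difference was detectable.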

Other observations

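Alas2, the erythroid form of the first enzyme of heme synthesis, which takes the glycine that Slc25a38 carries, had 41.2, 87.8 and 48.7 CPM in sgCtrl and 119.6, 101.4 and 133.6 CPM in sgPrdx2 livers (log2 fold change 0.997, SE 0.28, adjusted p = 0.0873 by edgeR, not called), and was singled out after its values were seen. The 4 globin genes on the same list of erythroid markers had log2 fold changes of -0.46 to -0.22 (adjusted p 0.113 to 0.459), Slc4a1 was near 0, and the summed level of the list was 156.2 to 200.4 CPM in sgCtrl and 188.7 to 257.4 CPM in sgPrdx2 livers. Without Alas2 it was 112.6 to 141.3 and 87.3 to 123.8 CPM, which overlapped. Alas1, on the list for heme and iron-sulfur synthesis, had 771.3, 224.8 and 268.6 CPM in sgCtrl livers. In sgPrdx2 livers it had 275.1, 364.0 and 1216 CPM, which overlapped (0.55, SE 0.65, adjusted p = 0.621 by edgeR).

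Markers of tissues in which members of the family have their best known roles were at low levels. Brown or beige adipocyte markers summed to 8.22 to 13.3 CPM in sgCtrl and 13.4 to 17.1 CPM in sgPrdx2 livers (2 of 4 tested above 0, none called by edgeR), and skeletal or cardiac muscle markers to 2.71 to 6.24 and 2.00 to 3.65 CPM (1 of 3 tested above 0, none called by edgeR, and 1 called lower with total counts). Without Ppargc1a, the highest gene of the adipocyte list, its sums were 1.83 to 5.45 and 4.35 to 6.48 CPM, which overlapped.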
